A study of Rattus norvegicus with 3 samples.

Results

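A set of 5 genes for secreted salivary proteins was followed across the 3 major salivary glands of the rat: Pip (prolactin-induced protein), Sval2 (seminal vesicle antigen-like 2), Crisp3 (cysteine-rich secretory protein 3), LOC171161 (common salivary protein 1, Csap1 in current RefSeq) and Spt1 (named only by its symbol here). They were selected on measured values of these same arrays, as secretory products other than the amylase and proline-rich families, and were looked up by gene name or description among the array's annotated probes. They are represented by 5 probes of 41012, each printed as 1 spot, and stand for 5 of 15999 genes with a probe. The words of the selection found 4 of the 5. The fifth is Crisp3, whose probe the array annotation calls Crisp1; its accession belongs to the gene that RefSeq now names Crisp3. The gene that RefSeq itself calls Crisp1 had no matched probe and was not analysed here.

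The 3 arrays hold RNA of the parotid, submandibular and sublingual gland, 1 array per gland, from untreated male Wistar rats aged 10 weeks. The study speaks of 3 rats without saying whether an array holds RNA of 1 animal or of a pool. The array labelled submandibular is called submandibular-labelled, because none of 6 genes of the granular ducts that mark the rodent submandibular gland could be shown to stand 4-fold above either other array there. For Smr3b, dim on both others, only lower bounds of 1.62-fold over parotid and 2.11-fold over sublingual can be given. There is no replicate array, so no test was possible and every value below describes these 3 hybridisations; the selection of the members would make their differences a description in any case.

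Saliva is made by acinar cells, whose serous type releases watery, enzyme-rich fluid and whose mucous type releases mucins. The rat parotid is almost wholly serous, and the sublingual gland is mainly mucous with caps of serous demilune cells. PIP is a small glycoprotein of saliva, tears, milk and seminal plasma that in humans binds bacteria and CD4, and the seminal vesicle antigen-like genes are its rodent relatives. CRISP proteins are secreted members of the CAP superfamily, and the rat protein of this gene was described originally from the epididymis. Common salivary protein 1 is related to the jacalin-like lectins, with the mouse demilune cell and parotid proteins and human ZG16B as its kin.

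The RefSeq promoters of the 5 genes (assembly GRCr8; 250 bases before and 50 after the annotated start, 5′ to 3′ along the gene) are printed because 3 of the genes were parotid-high together, 1 was high on every array and 1 was dim in parotid RNA. They lie at chr4:71754015-71754314 (Pip), chr4:71775754-71776053 (Sval2), chr9:27928341-27928640 (Crisp3) and chr10:13418692-13418991 (LOC171161, Csap1), all on the plus strand, and at chr7:136918200-136918499 on the minus strand (Spt1). Capitals mark short motifs that were searched on both strands. They were searched over all 300 bases. The TATA box letters were TATAAA, with variants that are written in a shifted frame as ATAAAA and with alternating letters as TATATA, and these can overlap each other. Of the forms an E-box can take, only CATATG was searched. Letters found in elements bound by steroid receptors, such as the androgen receptor, were searched as AGAACA. The letters of elements bound by STAT factors were searched as TTCNNNGAA, where N stands for any base. A match on the other strand is printed as its reverse complement.
Pip: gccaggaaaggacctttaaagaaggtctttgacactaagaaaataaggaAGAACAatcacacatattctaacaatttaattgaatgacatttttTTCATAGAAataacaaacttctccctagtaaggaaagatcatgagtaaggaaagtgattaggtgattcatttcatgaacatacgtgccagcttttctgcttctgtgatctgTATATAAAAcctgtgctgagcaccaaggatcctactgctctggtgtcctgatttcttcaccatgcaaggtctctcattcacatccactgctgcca
Sval2: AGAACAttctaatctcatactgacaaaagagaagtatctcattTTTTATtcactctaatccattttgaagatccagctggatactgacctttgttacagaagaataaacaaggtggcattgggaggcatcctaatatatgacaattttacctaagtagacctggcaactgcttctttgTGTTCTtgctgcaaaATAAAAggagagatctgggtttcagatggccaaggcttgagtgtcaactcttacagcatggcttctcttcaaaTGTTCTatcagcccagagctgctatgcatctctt
Crisp3: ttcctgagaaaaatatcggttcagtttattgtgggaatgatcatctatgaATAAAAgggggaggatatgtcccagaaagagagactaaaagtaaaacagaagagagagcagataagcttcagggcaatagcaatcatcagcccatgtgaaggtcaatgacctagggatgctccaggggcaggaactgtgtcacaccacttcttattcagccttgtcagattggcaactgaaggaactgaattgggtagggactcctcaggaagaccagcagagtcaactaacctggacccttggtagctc
Csap1: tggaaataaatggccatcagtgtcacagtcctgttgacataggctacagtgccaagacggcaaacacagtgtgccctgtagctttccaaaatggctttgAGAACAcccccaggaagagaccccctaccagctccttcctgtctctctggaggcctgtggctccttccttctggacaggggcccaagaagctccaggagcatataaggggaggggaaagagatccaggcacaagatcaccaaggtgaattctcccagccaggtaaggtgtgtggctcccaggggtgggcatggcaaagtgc
Spt1: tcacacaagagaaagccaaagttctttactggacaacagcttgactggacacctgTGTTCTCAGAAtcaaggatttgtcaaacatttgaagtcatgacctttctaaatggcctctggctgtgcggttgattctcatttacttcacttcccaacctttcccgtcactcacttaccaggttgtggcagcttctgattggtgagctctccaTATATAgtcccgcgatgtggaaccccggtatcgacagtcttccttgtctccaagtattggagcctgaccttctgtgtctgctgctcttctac

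Positions are those of the leftmost base of a match, counted from the annotated start. Pip had all of the TATA variants overlapping, with the alternating one at -45, the canonical one at -43 and the shifted one at -42. Spt1 had the alternating variant at -42. Sval2 had the shifted variant at -57 and, on the other strand, at -207, and Crisp3 had it at -200. Csap1 had none of the TATA forms searched. Other TATA-like letters were not searched, so whether the windows hold any is not reported. The steroid receptor letters stood in the windows of Pip, Sval2, Csap1 and Spt1, with 3 copies in Sval2 and none in Crisp3, and the STAT letters in those of Pip and Spt1. Over all positions and both strands these are common letters. Among 33469 rat promoters of the same length, TATAAA was present in 14.2%, its shifted variant in 20.5% and its alternating variant in 6.15%. The E-box form CATATG was present in 4.11%, the steroid receptor letters in 20.7% and the STAT letters in 8.87%. The TATA matches of Pip and Spt1 lie on the gene's own strand between -45 and -11. There, TATAAA was present in 1.74% of promoters, its shifted variant in 1.72% and its alternating variant in 0.977%. CATATG was in none of the 5 windows. Other E-box forms were not searched, so whether the windows hold any is not reported. Aligned end to end, the Pip and Sval2 windows were identical in 53.2% of aligned positions. Sval2 and its neighbouring relative Sval1, which has no matched probe here, reached 68.8%, while the other 14 pairs among these 6 genes lay between 46.8% and 55.5%.

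Levels below are log2 of the processed spot signal minus log2 of that array's 75th percentile, so 0 is a signal of 186 in parotid RNA, 228 in submandibular-labelled RNA and 244 in sublingual RNA. The signal error is the scanner software's own estimate for the spot. A probe called dim did not pass the software's test of being well above background, and a fold against a dim probe is a lower bound, taken against the higher of its own level and the lowest level of any probe above background on that array. Brightness also depends on the probe, so levels are compared between arrays and not between genes.

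Pip, which gives its family its name, was by far brightest in parotid RNA. Its signal was 240000 ± 24000 in parotid RNA, 699 ± 70 in submandibular-labelled RNA and 678 ± 68 in sublingual RNA (± scanner error). The levels were 10.33, 1.62 and 1.47 in the same order of arrays. The parotid level was thus 421-fold above the submandibular-labelled level and 464-fold above the sublingual level. The submandibular-labelled and sublingual levels differed by 0.14 on the log2 scale, which is less than the combined scanner error of 0.20, so no order can be given to them. In both, Pip was well above background, at 0.238% of its parotid level in submandibular-labelled RNA and 0.215% in sublingual RNA. The probe lies at chr4:69637626-69637685 in rn4, the build of the array annotation.

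Sval2, of the same family, was measured above background in parotid RNA alone. Its signal was 708 ± 71 in parotid RNA, and the dim signals were 5.34 ± 5.34 in submandibular-labelled RNA and 9.83 ± 5.02 in sublingual RNA. The parotid level of 1.93 was at least 45.4-fold above the submandibular-labelled level and at least 50.8-fold above the sublingual level. Under normexp background correction these differences were 9.50-fold and 9.60-fold, far below the bounds, so the bounds do not hold under normexp. Other scaling moved them less. On the log2 scale the bound over the submandibular-labelled array was 5.51, with 5.49 under quantile normalization and 5.19 under median centring. That over the sublingual array was 5.67, with 5.71 and 5.42 in the same order. No difference between the submandibular-labelled and sublingual arrays can be given, since both spots were dim. The probe lies at chr4:69670001-69670060 in rn4. Pip, Sval2 and Sval1 follow each other directly in the order of protein-coding genes on chromosome 4. Kel, which encodes the Kell blood group endopeptidase and lies 2 genes before Pip, had a level of -0.85 in parotid RNA and was dim on both others, a difference of at least 6.61-fold over the submandibular-labelled and at least 7.38-fold over the sublingual array.

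Crisp3 had the widest measured span of the 5 genes and a different level on each array. Its signal was 141000 ± 14100 in parotid RNA, 82.7 ± 9.37 in submandibular-labelled RNA and 672 ± 67.3 in sublingual RNA. The levels of 9.57, -1.46 and 1.46 place the parotid 2090-fold above the submandibular-labelled and 275-fold above the sublingual array. Between the arrays with little Crisp3, the submandibular-labelled level was lower by 2.92 on the log2 scale, which makes the sublingual level 7.59-fold the higher, and the combined scanner error was 0.22. Unlike Pip, therefore, the order parotid, sublingual, submandibular-labelled had a gap beyond scanner error at each step. The probe lies at chr9:16697386-16697445 in rn4.

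LOC171161 was very bright on all 3 arrays. Its signal was 211000 ± 21100 in parotid RNA, 220000 ± 22000 in submandibular-labelled RNA and 245000 ± 24500 in sublingual RNA. The levels were 10.15, 9.91 and 9.97, so the submandibular-labelled level was 85.1% and the sublingual level 88.5% of the parotid level. The 3 differences between arrays were 0.23, 0.18 and -0.06 on the log2 scale, for parotid minus submandibular-labelled, parotid minus sublingual and submandibular-labelled minus sublingual. The combined scanner error of each was 0.20, just under the first difference and above the other two in size. The sign of all 3 turned under centring on the array median, which gave -0.08, -0.07 and 0.01, and quantile normalization gave -0.17, 0.00496 and 0.17, so no gland can be called higher. No pixel of the 3 spots was saturated. Their mean signals, before processing, were 172000, 182000 and 198000 in parotid, submandibular-labelled and sublingual RNA. The highest mean signals of any spot on these arrays were 371000, 372000 and 368000. The array annotation gives this probe no coordinates.

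Spt1 was dim in parotid RNA and above background in both other samples. Its parotid signal was 4.73 ± 4.77, against 146 ± 15.5 in submandibular-labelled RNA and 27.9 ± 5.70 in sublingual RNA. The parotid level was at least 6.92-fold below the submandibular-labelled level of -0.64 and at least 1.24-fold below the sublingual level of -3.13. The submandibular-labelled level was 5.60-fold above the sublingual level, a log2 difference of 2.49 with a combined scanner error of 0.33. These signals are low, and normexp background correction reduced the last difference to 2.13-fold and that between parotid and submandibular-labelled to 2.29-fold, both under 4-fold. The annotation gives the ends of this probe on chromosome 7 of rn4 as 142755163 and 142745491, the higher position written before the lower. Whether Sval2 and Spt1 are abundant transcripts cannot be read from the brightness of their probes.

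**Figure D1:**
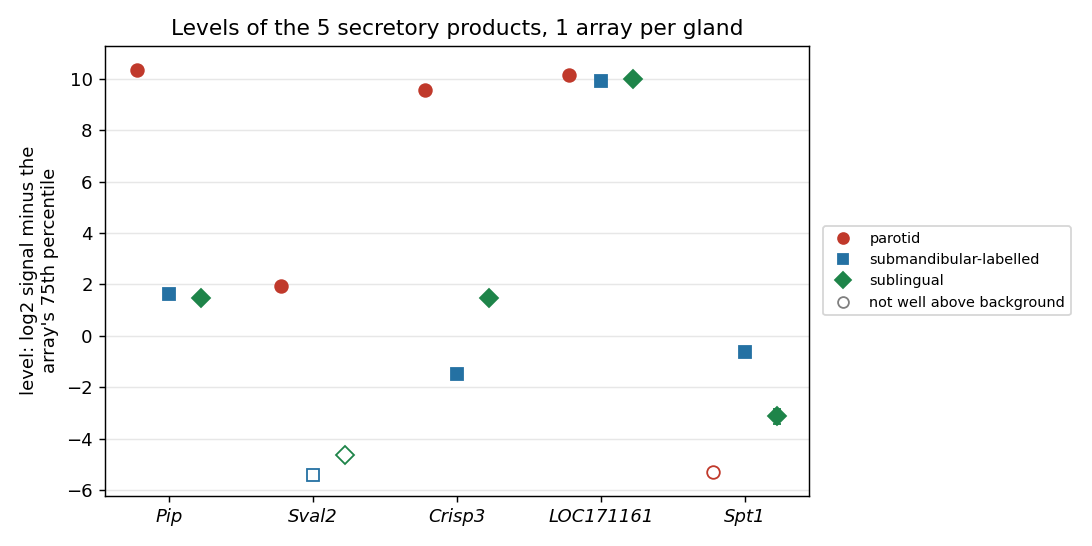
Level of each gene (log2 signal minus the array's 75th percentile) on the parotid, submandibular-labelled and sublingual array. Each point is 1 spot, bars are the scanner error and open symbols are dim spots: LOC171161 sits near 10 on every array, Pip and Crisp3 near 10 in parotid RNA only, and Spt1 is dim there.

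Counted at a threshold of 4-fold, Pip, Sval2 and Crisp3 of 5 genes were higher in parotid than in submandibular-labelled RNA, where 2.79% of 10806 genes compared were. Spt1 alone was lower, against 2.87% of all genes. Over the sublingual array the same 3 genes were higher in parotid RNA, against 2.85% of 10814 genes, and none was lower, against 3.04%. Their median differences were 5.51 and 5.67 on the log2 scale, beside -0.10 and -0.06 over all genes. Since these differences guided the selection, nothing is read from the counts. Both comparisons also share the parotid array.

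**Figure D2:**
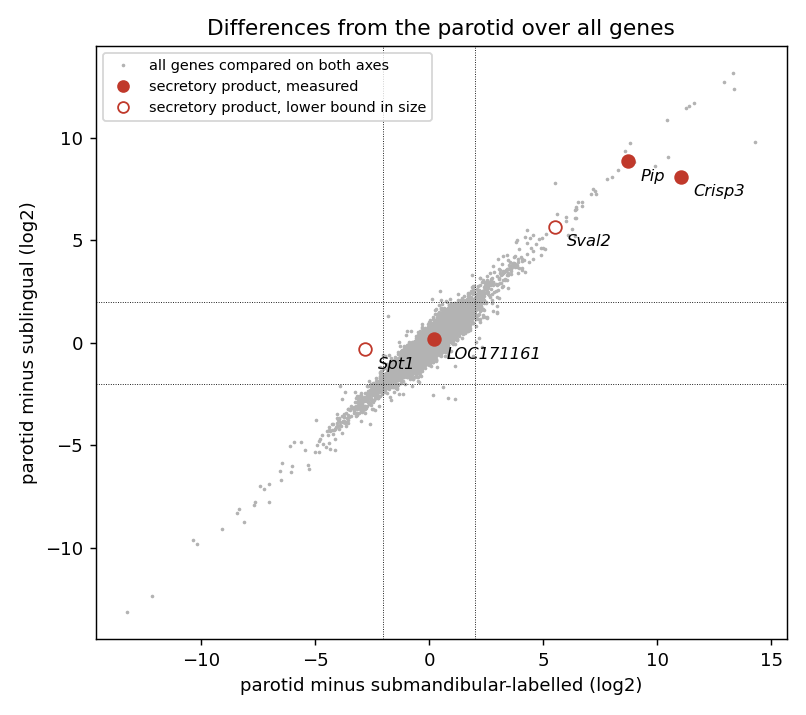
Difference between parotid and sublingual (vertical axis, log2) against difference between parotid and submandibular-labelled (horizontal axis, log2), with 1 grey point per gene and the 5 secretory genes in red. Dotted lines mark 4-fold, open symbols are lower bounds in size, and Pip, Sval2 and Crisp3 lie beyond 4-fold on both axes, Spt1 on 1 and LOC171161 near 0.

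The submandibular-labelled and sublingual arrays differed in few genes, and Crisp3 and Spt1 were among those few. Of 10385 genes compared, 8 (0.077%) were at least 4-fold higher in submandibular-labelled RNA, and Spt1 was among them. Another 15 genes (0.144%) were at least 4-fold lower there, Crisp3 among them. Of the 4 secretory genes compared, the remaining Pip and LOC171161 differed by less than 4-fold, and the median was 0.04 beside 0.05 over all genes. Of the 15 genes higher in sublingual RNA, Crisp3 and Dnase1, the secreted deoxyribonuclease, also stood at least 4-fold higher in parotid RNA than in either other sample. Dnase1 was at least 22.9-fold higher in sublingual than in submandibular-labelled RNA.

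The trace of the parotid-rich products on the other arrays differed from gene to gene. Of their parotid levels, the submandibular-labelled array held 0.106% for Amy1 (salivary amylase), 0.262% for Prb3 (a proline-rich protein) and 14.3% for Bpifa2 (a secreted parotid protein of the BPI fold). The sublingual array held 0.256%, 0.156% and 7.41% for the same genes. Sublingual exceeded submandibular-labelled 7.59-fold for Crisp3 and 2.41-fold for Amy1, whereas submandibular-labelled exceeded sublingual 1.68-fold for Prb3 and 1.93-fold for Bpifa2, and Pip differed by less than the scanner error. In all, 14 serous products from a list of 16 had a probe, and 14 of 14 were at least 4-fold higher in parotid RNA in both comparisons, with medians of 9.23 and 8.97; this list was written with the data known. In pieces of whole gland, fewer cells of a type and less RNA per cell cannot be told apart. The part of parotid serous RNA in these traces was not tested.

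**Figure D3:**
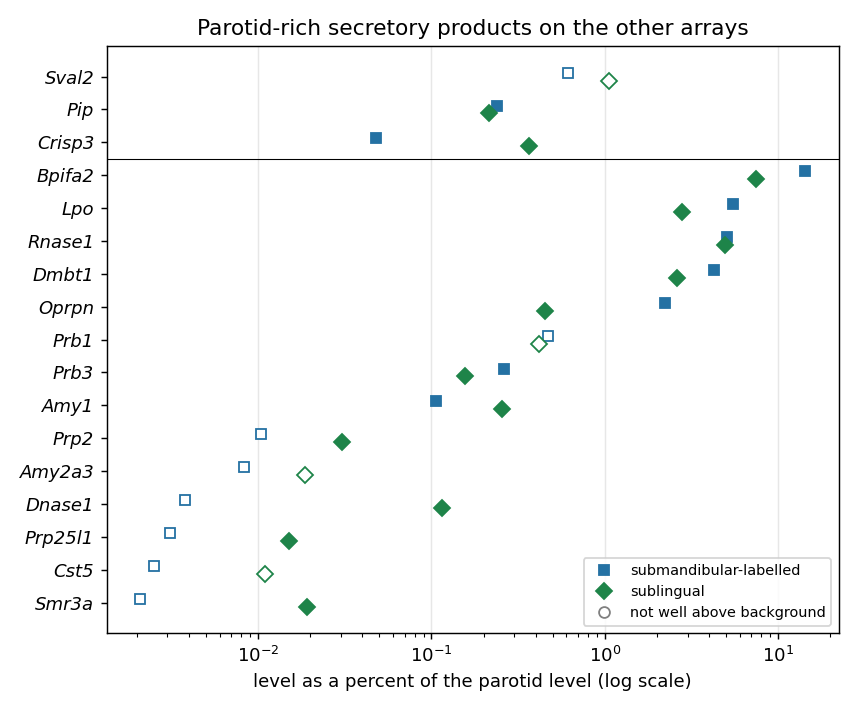
Levels on the submandibular-labelled and sublingual arrays as a percent of the parotid level (log axis), for Sval2, Pip and Crisp3 above the line and 14 serous products below it. Open symbols are dim spots, whose place on the axis is not a measured level. Filled symbols run between 0.0478% for Crisp3 and 14.3% for Bpifa2 in submandibular-labelled RNA, and Crisp3 is at 0.363% in sublingual RNA.

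Beyond the pair of Pip and Sval2, relatives above background differed from their member gene in the direction or the size of the differences. Of 14 CAP superfamily genes listed, 7 had a probe and 3 were above background. Beside Crisp3 these were Crispld2, a secreted CAP protein with LCCL domains, at levels of 1.79, 3.43 and 3.04 in parotid, submandibular-labelled and sublingual RNA, and Glipr1, at 1.19, -0.17 and 0.61. Glipr1 had the same order of arrays as Crisp3, with much smaller differences. It was 2.55-fold higher in parotid than in submandibular-labelled RNA and 1.49-fold higher than in sublingual RNA. Crispld2 ran the other way from Crisp3, 3.11-fold lower in parotid than in submandibular-labelled RNA and 2.38-fold lower than in sublingual RNA. Crisp2, Crispld1, Pi15 and Pi16 were dim on every array. Of 5 names of the PIP and seminal vesicle antigen family, Pip and Sval2 had a probe.

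Among the jacalin-like lectins the 3 genes with a probe had 3 different patterns. Zg16b, whose human counterpart is abundant in saliva, had signals of 49.5, 2970 and 1830 in parotid, submandibular-labelled and sublingual RNA. It was 48.9-fold lower in parotid than in submandibular-labelled RNA and 28.2-fold lower than in sublingual RNA, while LOC171161, 2 genes away on chromosome 10, differed by at most 1.18-fold. Zg16, a lectin of pancreatic zymogen granules, had signals of 127, 34.5 and 32.1 and was 4.51-fold and 5.19-fold higher in parotid RNA. On the other side of LOC171161, the serine protease gene Prss32 was dim in parotid RNA and at least 68.3-fold lower there than in submandibular-labelled RNA and at least 32.4-fold lower than in sublingual RNA. Prss21 and Sbp, which flank LOC171161 directly, were dim on all 3. Beside Crisp3, Pgk2 and Crisp2 were dim on all 3, and the named neighbours of Spt1, Mucl1 and Mucl2, had no matched probe.

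Mucous and demilune products mostly differed the other way from Pip and Crisp3. Of 12 listed, 11 had a probe. On the parotid array 2 were at least 4-fold higher and 7 lower than in submandibular-labelled RNA, and of 9 compared with the sublingual array 2 were higher and 6 lower. The 2 higher were Muc5b, a mucin gene, and Oprpn, which the serous list holds too. Muc5b had a low parotid signal of 80.7 and was dim on both other arrays, so its 4.46-fold and 5.72-fold are lower bounds. Bpifa2f, named Smgb in the array annotation, had levels of 6.56, 10.09 and 10.07 in parotid, submandibular-labelled and sublingual RNA, 11.6-fold and 11.5-fold lower in parotid RNA. Muc19, the gel-forming mucin of mucous acini, was lower there by at least 9628-fold and 9041-fold, and Bpifb2, another BPI fold protein, was 345-fold and 310-fold lower. LOC171161 followed neither list: it was as bright where serous products were high as where mucous products were.

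Genes with the pattern most like each member were sought by the root mean square difference between their 3 pairwise log2 differences and those of the member, among genes above background on the same arrays. With 3 arrays this likeness is a description. For Pip, over 9405 candidates, they were Prb3 (0.45), the nicotinic receptor modulator Lynx1 (0.59), Amy1 (1.06), Mtus1 (1.19) and the amylase pseudogene Amy2-ps2 (1.34). Crisp3 had no gene so near: Amy2-ps2 (1.11), Amy1 (1.20), Pip (2.26), Lynx1 (2.44) and the apelin receptor gene Aplnr (2.52) came closest. For Sval2, over 555 candidates and its 2 bounded differences, they were Sp2 (0.11), Prb1 (0.15), Vpreb3 (0.36), Vom2r10 (0.48) and Mup4 (0.57). Such bounds are mostly taken against the lowest level above background of an array, the same for each gene. The Sval2 list thus ranks genes mainly by the brightness of their parotid probe, and no likeness of pattern is read from it. For LOC171161, whose pattern was nearly flat, they were Eif3h, Cd248, Nme6, Stam and Shank2, each at 0.0122 or less. For Spt1, over 384 candidates dim in parotid RNA alone, they were Cacng1 (0.77), Or1e33 (0.86), Muc15 (0.98), Dscam (1.12) and Ak4 (1.19). The parotid differences of Spt1 are bounds too, so its list also depends on probe brightness on the other arrays.

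Marker lists moved with the arrays as well, and their part in the differences above was not tested. Summed over a list, as multiples of each array's 75th percentile, markers of parotid serous acini (5 with a probe) reached 5699, 168 and 92.6 in parotid, submandibular-labelled and sublingual RNA, and all 5 were at least 4-fold higher in parotid RNA. A sum is led by its brightest probes. On the submandibular-labelled and sublingual arrays the serous sum was mostly Bpifa2, at log2 levels of 7.36 and 6.41. Bpifa2 and Prb3 were lower in sublingual than in submandibular-labelled RNA, whereas Amy1 and Dnase1 were higher. Mucous acinar markers reached 25.6, 1571 and 1573, with all 5 at least 4-fold lower in parotid RNA. Granular duct markers reached 476, 542 and 420. Duct epithelium reached 97.5, 234 and 202, and myoepithelium 19.0, 58.1 and 47.1. The duct markers did not move together. Krt7, Krt19 and Cldn4 were 3.18-fold, 2.28-fold and 3.68-fold lower in parotid than in submandibular-labelled RNA. Slc12a2 and Ascl3 were 2.63-fold and 1.86-fold higher. Of the immune markers, Jchain, the joining chain of secreted antibodies, had log2 levels of 3.32, 1.13 and 1.54, and Cd3e, Cd79b and Ms4a1 were dim on every array. Endothelium reached sums of 17.1, 9.17 and 11.2, mostly from Kdr. Adipocytes reached 2.55, 0.772 and 0.848, and skeletal muscle 0.799, 3.25 and 2.54. Between 62.8% and 64.4% of genes were above background per array, and probes with at least 3 repeat spots had a median SD of 0.08 to 0.09 on the log2 scale, which covers printing and scanning only.

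**Figure D4:**
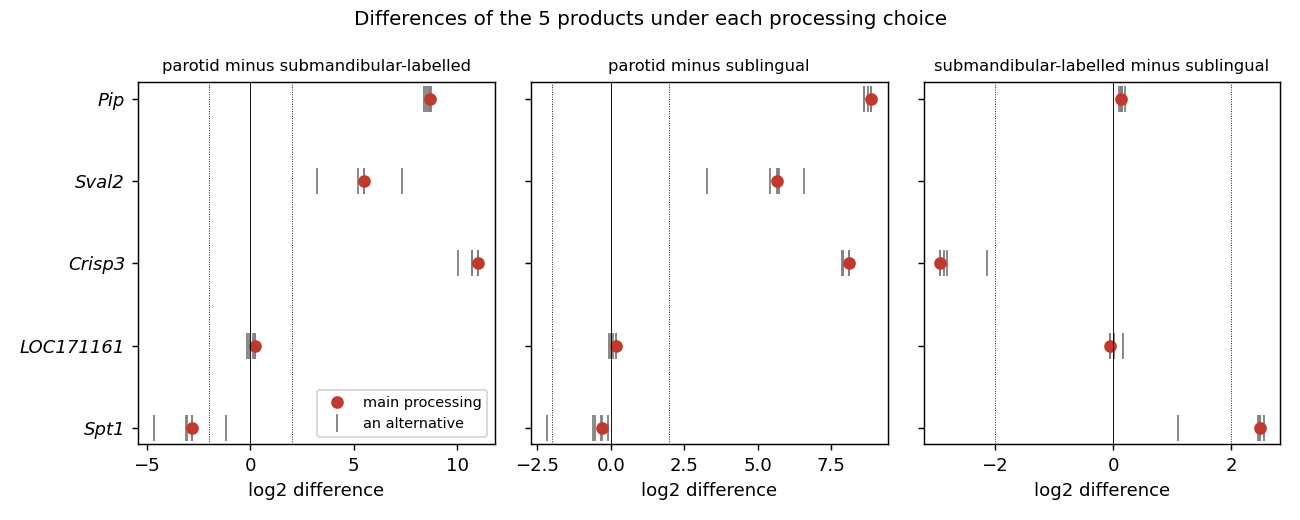
Log2 difference of each of the 5 genes between 2 arrays, 1 panel per pair (parotid minus submandibular-labelled, parotid minus sublingual, submandibular-labelled minus sublingual), with the reported value as a red point and each other way of processing as a grey tick. Dotted lines mark 4-fold. Pip moves little, and Crisp3 moves more but stays beyond 4-fold in each panel. Sval2 and Spt1, whose differences from parotid are bounds, move most, and LOC171161 stays close to 0 on either side.

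The size of the differences depended on processing, also for spots above background. Pip stayed between 339-fold and 422-fold higher in parotid than in submandibular-labelled RNA under 7 alternatives. Crisp3 ran from 1053-fold, under normexp background correction, to 2099-fold. Normexp also reduced the excess of Crisp3 in sublingual over submandibular-labelled RNA to 4.37-fold. The excess of Spt1 in submandibular-labelled over sublingual RNA ran from 2.13-fold to 5.87-fold. The excess of Sval2 in parotid over submandibular-labelled RNA ran from 9.50-fold under normexp to 163-fold when the dim signal was taken as it stands. Spt1 was lower in parotid than in submandibular-labelled RNA throughout, by 2.29-fold to 25.2-fold, and below the sublingual array by 1.07-fold to 4.50-fold.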

How the data were processed

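Gene expression in the rat parotid, submandibular and sublingual glands was measured on 1 single-colour Agilent array per gland, from 500 ng of Cy3-labelled total RNA, per the labels' protocols. Deposited intensity values, per the file headers, were extracted from design 014879 by Feature Extraction 10.1.1.1, protocol GE1-v5_10_Apr08. Deposited flags of 0 or 1 (other values) mark spots well above background, saturated or outlying. A value table for all spots holds the authors' linear ratio; how it was made is not given in these sources. It covers 43379 spots. Over bright spots, the median ratio of the deposited signal to this value was 190, 236 and 250 on the 3 arrays. Its direction and approximate scale are thus known, and its medians are 0.152, 0.122 and 0.128.

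Control spots and outlier-flagged spots (68, 79 and 73 on the parotid, submandibular-labelled and sublingual arrays) were left out. Levels are log2 of the processed signal minus that of the 75th percentile over probes, and spots of a probe were averaged. Genes were named through RefSeq GRCr8 for 20424 of 41012 probes, 11044 by accession, and a gene with several probes was represented by the brightest. The lowest level above background was -3.43, -3.58 and -3.74. No test was made; the number of arrays limits the precision. Alternatives were normexp (offset 50), median centring, quantile normalization, the deposited values, other rules for dim and outlying spots, a gene's median probe, and 2-fold and 10-fold thresholds. The members, lists and tests were chosen with earlier results of these data known. Genes named are the members, the 5 nearest patterns of each, their families and neighbours, and up to 6 of each list by size of difference; Dnase1 between the submandibular-labelled and sublingual arrays, Bpifa2f and Muc5b were chosen after their values were seen. The summed level of the immune markers is not reported here. The code for counting was run on simulated data with known changes, which checks the code and not the reliability of a call. Python 3.11.15, numpy 2.4.6, pandas 2.3.3, scipy 1.17.1, matplotlib 3.10.9 and limma 3.58.1 in R 4.3.3 were used.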

Additional observations from a re-analysis of the deposited data

How the results depend on the processing

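No paired analysis was possible because there is 1 array per gland, and for the same reason no array could be left out. Of the 5 genes, 4 were at least 4-fold apart between parotid and submandibular-labelled, and 2 of the 3 that could be compared when only probes above background on both arrays were used. Between submandibular-labelled and sublingual, 2 were apart, 1 under normexp and 0 at 10-fold. Over all genes, 612 were apart between parotid and submandibular-labelled (302 higher and 310 lower): 327 under normexp (133 and 194), 432 of 9530 among probes above background on both arrays, 1044 with dim signals taken as they stand, 2373 at 2-fold and 203 at 10-fold. Between parotid and sublingual 637 were apart (308 and 329): 346 under normexp (134 and 212), 1117 without bounds, 2679 at 2-fold and 214 at 10-fold. Between submandibular-labelled and sublingual 23 were apart: 11 under normexp, 94 without bounds, 10 among probes above background on both arrays, 162 at 2-fold and 10 at 10-fold. Median centring turned the split to 213 higher and 432 lower for parotid against submandibular-labelled, and to 232 and 429 against sublingual; it moved the median of genes above background on all arrays, -0.14 and -0.11 as reported, by -0.31 and -0.24. The sign of LOC171161 turned in 5 of 21 values, at -0.08 and -0.17 (parotid minus submandibular-labelled), -0.07 (parotid minus sublingual) and 0.01 and 0.17 (submandibular-labelled minus sublingual), and of the 5 genes no other changed sign. Apart from fewer probes compared and other thresholds, the cause of these changes was not tested. Dim spots (Sval2 on 2 arrays, Spt1 on the parotid array) limit those folds to bounds.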

Other observations

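Besides Spt1, 7 genes passed 4-fold in submandibular-labelled over sublingual RNA. The gene 4932415M13Rikl was at least 36.9-fold higher, the olfactory receptor gene Or52p2 at least 30.8-fold and Ndst3 at least 5.02-fold higher, and Adprhl1 4.13-fold higher. Tff3, a secreted trefoil peptide of mucous epithelia, was at least 25.3-fold higher, Prh1, a proline-rich salivary protein gene, 8.61-fold higher and Oprpn (Muc10 in the array annotation) 4.87-fold higher. Oprpn also stood at least 4-fold higher in parotid RNA than in either. In the other direction were 15 genes, Crisp3 among them. The olfactory receptor genes Or4a66b and Or2aj4 were at least 26.5-fold and 26.3-fold lower in submandibular-labelled RNA. Dnase1 was at least 22.9-fold, Cacna2d4 at least 18.8-fold and Plxnc1 15.1-fold lower there. Vip, the vasoactive intestinal peptide of parasympathetic nerves, was at least 12.8-fold lower and the chemokine gene Ccl2 4.01-fold lower. These genes were chosen after their values were seen, and the values come from 1 array per gland.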
